A study of Mus musculus with 6 samples.

Results

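The genes described are 36 named markers of lymphocytes, 16 of B cells, 16 of T cells and 4 of natural killer (NK) and cytotoxic cells, in inguinal white adipose tissue (iWAT) of cold-acclimated mice. Members were found by symbol, without use of their values, and 34 of the 36 were matched among the 16538 listed genes, namely 14 B cell, all 16 T cell and all 4 NK and cytotoxic genes. Ighm and Ighd, the heavy chains of the first antigen receptors a B cell carries, were not analysed here. All 34 had a mean of at least 10 normalized counts over the 6 samples and so entered the tests. Ms4a1, Cr2, Pax5, Blk, Cd3d and Foxp3 reached that mean only through control replicate 1 and AKO replicate 2, since their means over the other 4 samples were under 10.

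The study asked what adipocyte-derived neuregulin 4 (NRG4), a secreted growth factor encoded by Nrg4, does in beige fat. Bulk RNA-Seq was done on 3 control and 3 AKO samples of iWAT, each from RNA of 2 mice pooled. Control mice carried floxed Nrg4 without Cre (fl/fl, labelled wt), AKO mice carried the same alleles with Adiponectin-Cre, which is active in adipocytes, and both were chow-fed and held at 8 °C, with 10 days of cold stated in the sample labels and a slightly longer stay in the study's text. Age and sex of these mice are not given in the sources used here. Nrg4 had 3128, 3102 and 3092 normalized counts (reads divided by a sample's size factor) in control and 2577, 2627 and 2691 in AKO, so its mean was 15.3% lower and the groups did not overlap, with an adjusted p of 0.298 by limma. Most of the Nrg4 signal thus remained in the samples labelled AKO, which for a gene deleted in adipocytes does not match a near-complete loss. By qPCR, the paper reports almost no Nrg4 mRNA in iWAT of cold-acclimated AKO mice. A count over the whole gene does not isolate the deleted exons and so checks the labels only in part, and AKO is used here as the labels give it.

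B cells make antibodies, and each carries an antigen receptor whose signal passes through the paired chains CD79A and CD79B. T cells recognise antigen through a receptor bound to the CD3 chains, with CD4 or CD8 as coreceptor, while NK cells and cytotoxic T cells kill targets by releasing perforin and granzymes. Lymphocytes are found among the stromal cells of fat, and the mouse inguinal pad also encloses a lymph node in which B and T cells are packed at far higher density. Whether the node was taken out before RNA extraction is not given in the sources used here. In bulk tissue, fewer cells of a type and less RNA per cell cannot be told apart.

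Lymphocyte RNA was spread very unevenly over the 6 samples. Control replicate 1 and AKO replicate 2 stood apart from the other 4 for the B and T cell genes, 1 in each genotype. They were the highest pair of samples for 13 of 14 B cell members and 15 of 16 T cell members, but for 0 of 4 NK and cytotoxic members, against 8.99% of the 13855 genes tested. Both were at least 3-fold above the highest of the other 4 samples for 11 B cell, 5 T cell and 0 NK and cytotoxic members, against 0.375% of all genes tested. Ms4a1, Cr2, Pax5 and Blk, which are in both B cell counts, passed the filter on the mean only through this pair. So did Cd3d and Foxp3, which are in the T cell count of highest pairs. The shares over all genes hold genes of that kind as well, such as Dsc3. All of these counts describe a pattern seen in the data and carry no test. Depth did not follow it, since the listed genes took 17635879 reads in control replicate 1 and 17995218 in AKO replicate 2, between 17570335 and 18373707 elsewhere. With 1 sample standing apart in each group, the comparison of genotypes is given with and without this pair.

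**Figure D1:**
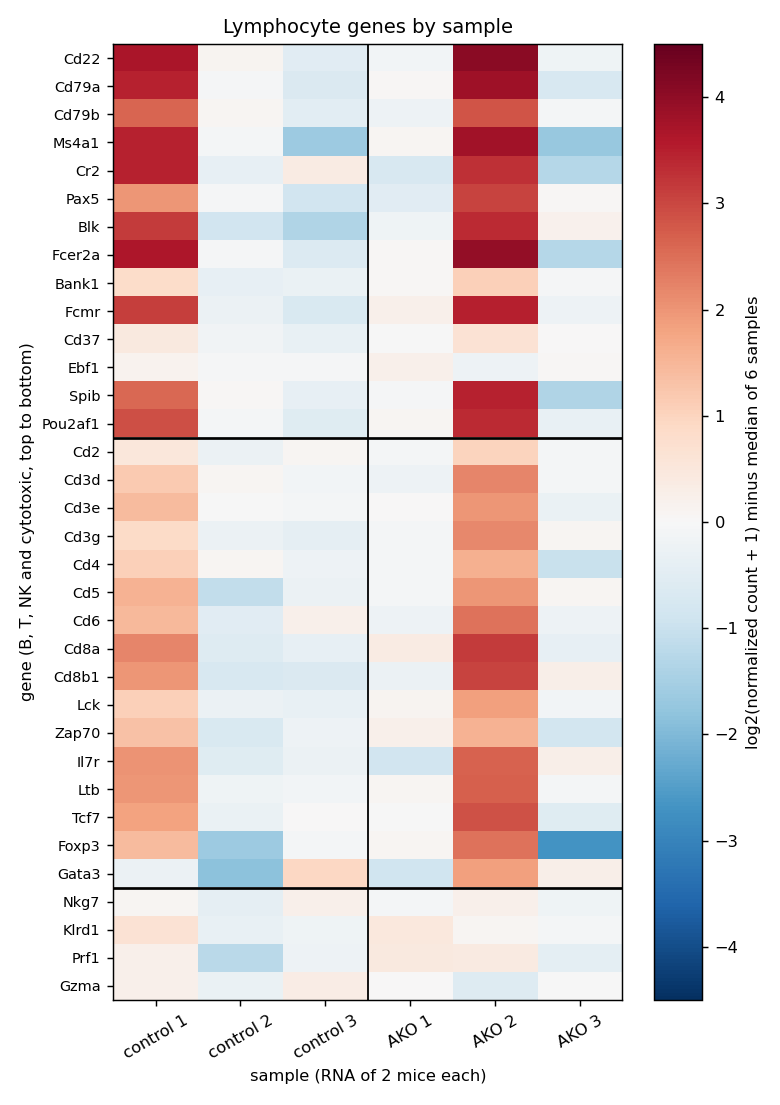
The heatmap shows the 34 matched genes in rows, grouped as B cell, T cell and NK and cytotoxic genes, and the 6 samples in columns, colored by log2(normalized count + 1) minus the gene's median over the 6 samples. The columns of control replicate 1 and AKO replicate 2 are high for nearly all B and T cell rows, with Ebf1 and Gata3 as exceptions, and not for the 4 NK and cytotoxic rows.

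The B cell genes are described first through their sequences at the start site. A relation between these letters and the spread over samples was not tested. RefSeq start-site windows (GRCm38.p6, 250 bases before to 50 after the start) were matched for 26 of the 34 members. The 4 windows that follow belong to the B cell members of highest mean normalized count, and Cd79a was added after its values were seen, as a gene of narrow B cell use. Ebf1, which was spread evenly, lies at chr11:44617850-44618149 (plus strand). The nearly even Cd37 lies at chr7:45238790-45239089 (minus strand). The uneven genes are Cd22 at chr7:30878979-30879278 (minus strand), Fcer2a at chr8:3694125-3694424 (minus strand) and Cd79a at chr7:24897247-24897546 (plus strand). Capitals mark matches, on either strand, to GAGGAA (letters of an ETS-type site) or CCCNNGGG (letters of an EBF-type site), which do not overlap in these windows.
Ebf1: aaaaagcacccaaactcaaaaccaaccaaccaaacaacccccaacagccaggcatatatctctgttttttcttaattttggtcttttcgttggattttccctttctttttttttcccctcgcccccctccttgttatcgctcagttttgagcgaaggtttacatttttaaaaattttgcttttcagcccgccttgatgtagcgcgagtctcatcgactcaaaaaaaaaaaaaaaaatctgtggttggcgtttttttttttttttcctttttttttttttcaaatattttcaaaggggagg
Cd37: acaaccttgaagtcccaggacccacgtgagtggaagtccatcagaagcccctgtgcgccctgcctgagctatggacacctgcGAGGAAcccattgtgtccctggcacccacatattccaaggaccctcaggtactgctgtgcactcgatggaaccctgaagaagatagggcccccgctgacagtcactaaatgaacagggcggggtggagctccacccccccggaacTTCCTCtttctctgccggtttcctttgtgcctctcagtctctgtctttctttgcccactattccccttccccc
Cd22: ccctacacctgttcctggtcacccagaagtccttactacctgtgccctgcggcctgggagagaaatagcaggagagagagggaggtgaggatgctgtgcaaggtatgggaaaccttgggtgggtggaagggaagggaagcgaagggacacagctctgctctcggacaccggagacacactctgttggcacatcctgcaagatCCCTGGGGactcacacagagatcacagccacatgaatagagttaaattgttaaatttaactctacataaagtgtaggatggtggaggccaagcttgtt
Fcer2a: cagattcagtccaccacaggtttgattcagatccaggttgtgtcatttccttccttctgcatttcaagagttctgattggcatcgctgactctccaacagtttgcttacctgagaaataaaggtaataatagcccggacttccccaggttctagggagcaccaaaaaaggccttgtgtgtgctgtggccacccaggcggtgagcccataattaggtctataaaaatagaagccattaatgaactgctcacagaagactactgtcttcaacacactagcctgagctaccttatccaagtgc
Cd79a: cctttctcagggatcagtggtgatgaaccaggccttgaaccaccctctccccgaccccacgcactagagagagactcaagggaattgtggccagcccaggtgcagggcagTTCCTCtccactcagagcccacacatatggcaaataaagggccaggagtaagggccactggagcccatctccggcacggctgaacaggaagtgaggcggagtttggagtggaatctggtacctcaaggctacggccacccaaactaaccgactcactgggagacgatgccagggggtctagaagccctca

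The window of Cd22 held 1 EBF-type match that began 48 bases before the start. Cd37 held ETS-type matches that began 168 and 23 bases before the start, Cd79a held 1 that began 140 bases before, and neither motif was found in the windows of Ebf1 and Fcer2a. CCCNNGGG was present in 3 of 11 matched B cell promoters (Cd22, Bank1 and Spib), 0 of 12 T cell and 1 of 3 NK and cytotoxic promoters (Prf1), against 13.4% of 27025 promoters of the same length. GAGGAA was present in 4 of 11 B cell promoters, 8 of 12 T cell promoters (Cd3d, Cd3e, Cd5, Cd8a, Lck, Zap70, Ltb and Tcf7) and 2 of 3 NK and cytotoxic promoters, against 28.3% of all. The octamer ATGCAAAT was in 0 of the 26 and in 1.77% of all, and CTTTGAT (TCF/LEF type) was in that of Cd3d alone and in 3.76% of all. The motifs were searched on both strands, and a match is a description of letters only.

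The signalling chains of the B cell receptor were uneven together. Cd79a (chromosome 7, 24897381 to 24902197, plus strand) had 195, 16.1 and 10.2 normalized counts in control and 17.3, 247 and 9.64 in AKO replicates 1 to 3. Cd79b (chromosome 11, 106311341 to 106314762, minus strand) had 129, 21.5 and 14.2 in control and 17.3, 152 and 19.3 in AKO. Both genes were many times higher in control replicate 1 and AKO replicate 2 than in any other sample, the lower of this pair exceeding the highest of the other 4 by 11.3-fold and 6.02-fold, and the genotypes overlapped. The log2 fold change (AKO over control, on log2(normalized count + 1) by limma) was 0.12 (standard error 1.37) for Cd79a and 0.12 for Cd79b.

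Several surface receptors of mature B cells differed widely between samples. Cd22 (chromosome 7, 30865402 to 30880342, minus strand), an inhibitory coreceptor, had 279, 22.6 and 14.2 normalized counts in control and 19.2, 360.3 and 18.3 in AKO. Fcer2a (chromosome 8, 3681737 to 3694175, minus strand), the low-affinity IgE receptor CD23, had 229.8, 17.2 and 11.2 in control and 18.2, 291 and 6.75 in AKO. Ms4a1 (chromosome 19, 11249675 to 11266241, minus strand), which encodes CD20, had 136, 10.8 and 3.05 in control and 12.5, 172 and 2.89 in AKO. In each of these 3 genes both groups held 1 sample above 130 and 2 samples under 25 normalized counts, so group means of 105 ± 150.5 in control and 133 ± 197 in AKO (SD, n = 3 each) for Cd22 had SDs above the means. The ratio of the highest to the lowest sample was 25.3 for Cd22, 43.1 for Fcer2a and 59.4 for Ms4a1, the widest of all members with Foxp3 aside. The low end of the last ratio rests on 3 reads in each of 2 samples, so that it is poorly determined. The confidence interval of the Cd22 log2 fold change, 0.16 (95% confidence interval -3.01 to 3.33), therefore spanned large changes in both directions.

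Cr2, the complement receptor CD21 that is abundant on marginal zone B cells and follicular dendritic cells, had 104, 6.45 and 11.2 normalized counts in control and 4.80, 91.8 and 2.89 in AKO. It was the B cell member in which control replicate 1 rather than AKO replicate 2 was highest, and the groups overlapped. Fcmr, the Fc receptor for IgM, ranged from 10.2 in control replicate 3 to 204 in AKO replicate 2, with 156 in control replicate 1. Cd37, a tetraspanin of B cells that other leukocytes also carry, had 422, 279.6 and 250.1 in control and 311, 494 and 314 in AKO. The same pair of samples was highest for Cd37, but by a factor of only 1.34 over the other 4, and its log2 fold change was 0.24 (95% confidence interval -0.31 to 0.78).

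The intracellular members ran from narrow to broad use. Blk, a Src-family kinase downstream of the B cell receptor, had 67.2, 3.23 and 2.03 normalized counts in control and 5.76, 77.1 and 7.71 in AKO, a highest-to-lowest ratio of 37.9. Bank1, a scaffold protein of the same signal, had 133, 58.1 and 61.0 in control and 77.8, 161 and 73.3 in AKO, a ratio of 2.77. Among the transcription factors, Pax5, which fixes B cell identity, ranged from 2.03 to 44.9. Spib, an ETS factor of B cells and plasmacytoid dendritic cells, ranged from 6.75 to 219.7, and Pou2af1, a coactivator for octamer-binding factors, from 9.15 to 150.4. For Blk, Bank1, Pax5, Spib and Pou2af1, the highest pair was again control replicate 1 and AKO replicate 2.

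Ebf1 (chromosome 11, 44617317 to 45008091, plus strand) went against the other 13 B cell genes. It encodes a factor needed for early B cell development that is also made by adipocytes and their precursors. It had 2549, 2170.1 and 2219 normalized counts in control and 2679, 1927 and 2339 in AKO, so its lowest value was in AKO replicate 2, and the ratio of its highest to lowest sample was 1.39, near the median of 1.32 over all genes tested. Its log2 fold change was -0.01 (95% confidence interval -0.29 to 0.27). Per kilobase of exon its mean was 237 normalized counts, against 98.0 for Cd37, 56.6 for Cd79a and 1.51 for Pax5, the lowest B cell member on that scale. Ebf1 thus dominated the summed B cell level, whose highest-to-lowest ratio was 1.77 with Ebf1 and 6.46 without it.

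The T cell genes were uneven over the same samples, with smaller ratios. The CD3 genes lie side by side on chromosome 9. Cd3e had 74.3, 26.9 and 25.4 normalized counts in control and 27.8, 111 and 22.2 in AKO, Cd3g ranged from 20.3 to 126, and Cd3d ranged from 8.64 to 49.8. All of these CD3 chains were highest in AKO replicate 2 and next in control replicate 1, and the genotypes overlapped for each. Their log2 fold changes were 0.15 for Cd3e, 0.65 for Cd3g and 0.27 for Cd3d, with standard errors from 0.62 to 0.68.

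The coreceptors of helper and killer T cells differed in how low their lowest samples were. Cd4 (chromosome 6, 124864692 to 124888221, minus strand) had 159, 80.7 and 65.1 normalized counts in control and 71.1, 230.4 and 37.6 in AKO. Cd8b1 (chromosome 6, 71322788 to 71337494, plus strand) had 68.2, 9.68 and 10.2 in control and 13.4, 143 and 20.2 in AKO. Cd8a, its partner chain, ranged from 12.9 to 185. The ratio of the highest to the lowest sample was 6.13 for Cd4, which macrophages and dendritic cells can also transcribe, 14.3 for Cd8a and 14.7 for Cd8b1. The last was the widest T cell ratio with Foxp3 aside, which is listed at 0 in 1 sample. The log2 fold change of Cd8b1 was 0.81 (95% confidence interval -1.48 to 3.09).

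Other surface and signalling genes of T cells followed. Lck, the kinase bound to CD4 and CD8, had 115, 45.2 and 42.7 normalized counts in control and 58.6, 199 and 50.1 in AKO. Cd2, an adhesion receptor of T and NK cells, had 112, 65.6 and 83.4 in control and 73.9, 157 and 73.3 in AKO. Il7r, the receptor chain for interleukin 7 on resting T cells, had 112, 18.3 and 22.4 in control and 14.4, 176 and 32.8 in AKO. In all of these the pair of control replicate 1 and AKO replicate 2 was highest, and Cd2 had the smallest ratio of highest to lowest sample in the T cell list, 2.40. Zap70, the kinase recruited to the activated receptor, the scavenger-type receptors Cd5 and Cd6, and Ltb, a lymphotoxin chain needed for lymph node formation, had ratios of 5.57, 9.60, 8.25 and 7.79, with the same highest pair.

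Tcf7 (chromosome 11, 52252371 to 52283014, minus strand), the factor TCF-1 of naive and memory T cells, had 222, 50.5 and 64.0 normalized counts in control and 61.5, 461 and 42.4 in AKO. Its means were 112 ± 95.2 in control and 188 ± 236 in AKO (SD, n = 3 each), and its log2 fold change was 0.25 (standard error 0.89). Foxp3, the factor of regulatory T cells, had 16.1 normalized counts in control replicate 1 and 34.2 in AKO replicate 2, and from 0 to 5.76 in the other 4, that is at most 6 reads. No change in Foxp3 was detected, with few reads in those 4 samples, and 31.5% of its exonic bases are shared with other annotated genes.

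Gata3 (chromosome 2, 9857078 to 9890034, minus strand), a factor of type 2 helper T cells and innate lymphoid cells that mammary and other epithelia also make, was the T cell member with another order of samples. It had 74.3, 23.7 and 171 normalized counts in control and 47.1, 321 and 105 in AKO. Control replicate 3, which was below control replicate 1 for the other 15 T cell members, was above it here. The mean log2 level of 7 mammary epithelial genes ran, from high to low, through AKO replicate 2, control replicate 3, AKO replicate 3, control replicate 1, AKO replicate 1 and control replicate 2, the same order as Gata3. The keratin gene Krt18 of that list had 132, 8.60 and 312 in control and 36.5, 447 and 148 in AKO. What part of the Gata3 signal came from which cells was not tested.

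The 4 NK and cytotoxic genes did not share the pattern. Nkg7 (chromosome 7, 43437073 to 43438249, plus strand), a granule membrane protein, had 70.2, 50.5 and 79.3 normalized counts in control and 63.4, 78.1 and 57.8 in AKO. Gzma, the protease granzyme A, had 49.2, 34.4 and 53.9 in control and 43.2, 28.3 and 41.5 in AKO. Both were spread evenly, with highest-to-lowest ratios of 1.57 and 1.90, and Gzma was lowest in AKO replicate 2, where 16 of 16 T cell members were highest. Prf1, which encodes perforin, had 28.1, 9.68 and 20.3 in control and 32.7, 32.2 and 17.4 in AKO. Klrd1, the NK receptor chain CD94, had 26.1, 12.9 and 14.2 in control and 23.0, 17.6 and 15.4 in AKO. The groups overlapped for all 4, and the log2 fold changes ran from -0.28 (standard error 0.25) for Gzma to 0.54 (standard error 0.43) for Prf1.

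**Figure D2:**
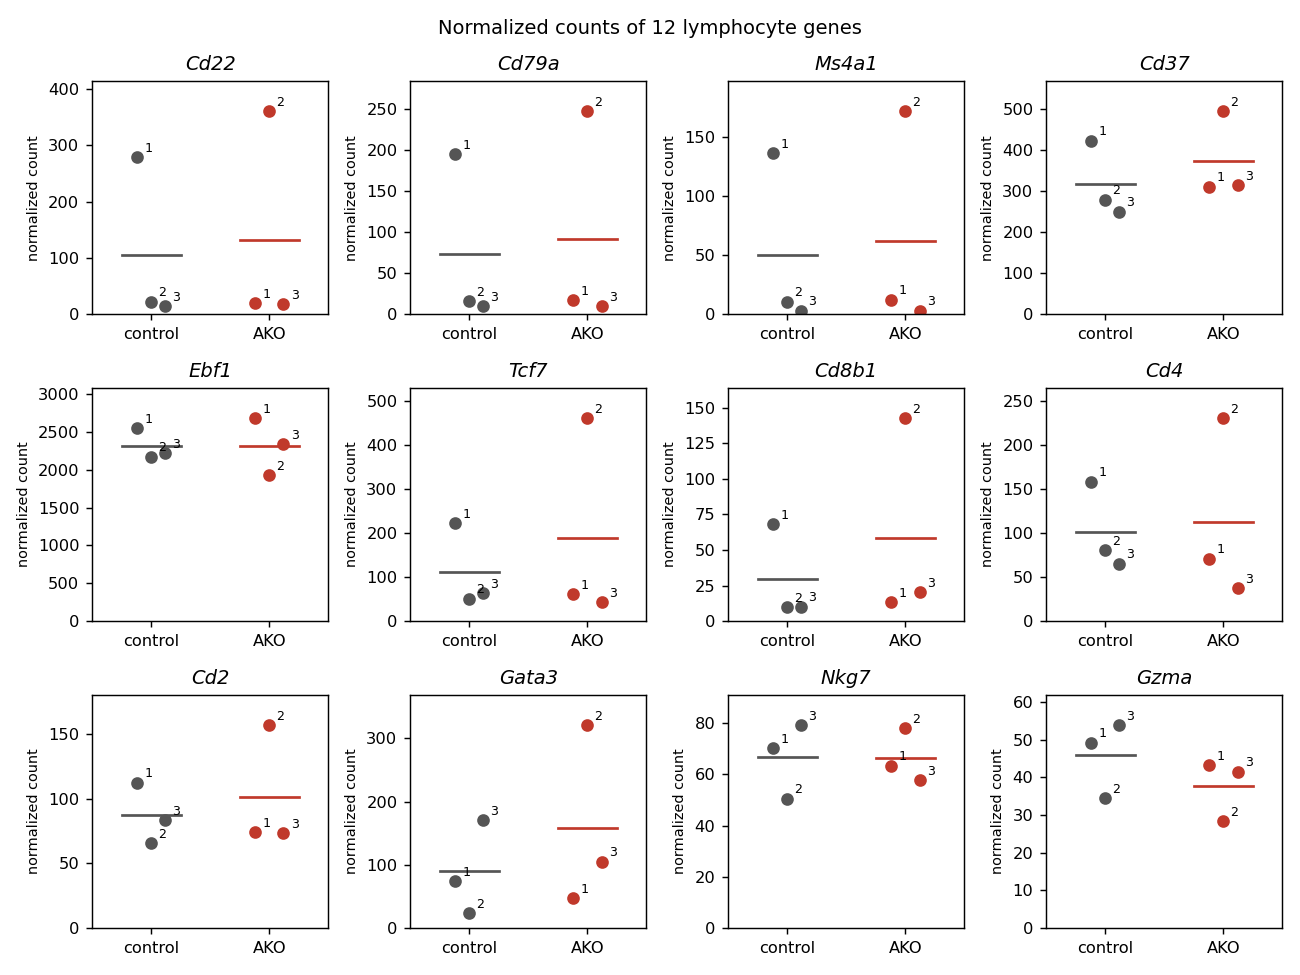
Each panel plots the normalized counts of 1 of 12 genes on a linear axis from 0, with control samples on the left and AKO samples on the right, each point a sample labelled by its replicate number and each line the group mean. In Cd22, Ms4a1, Cd79a, Cd8b1 and Tcf7 control replicate 1 and AKO replicate 2 lie apart from the rest, whereas in Ebf1, Nkg7 and Gzma they do not.

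The degree of unevenness was ranked by list. The median ratio of highest to lowest sample was 23.7 for B cell members (from 1.39 to 59.4), 7.79 for T cell members (from 2.40 to 14.7, Foxp3 aside, which is listed at 0 in 1 sample), 1.96 for NK and cytotoxic members (from 1.57 to 3.37) and 1.32 for all genes tested. The lower value of control replicate 1 and AKO replicate 2 was, in the median, 7.62 times the highest of the other 4 samples for B cell members, 2.54 times for T cell members and 0.81 times for NK and cytotoxic members, against 0.84 for all genes. The variance of the recovered reads over their mean, which is near 1 for counting error alone, had medians of 74.3, 42.8 and 2.19 in the same order and 3.53 for all genes. This ratio rises with the number of reads, so it does not rank lists of unlike level. It was 43.9 for the evenly spread Ebf1. In the other 4 samples, 20 of 56 B cell values rested on at most 10 reads, against 11 of 64 T cell and 1 of 16 NK and cytotoxic values, so the low ends of the B cell ratios carry the larger counting error.

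**Figure D3:**
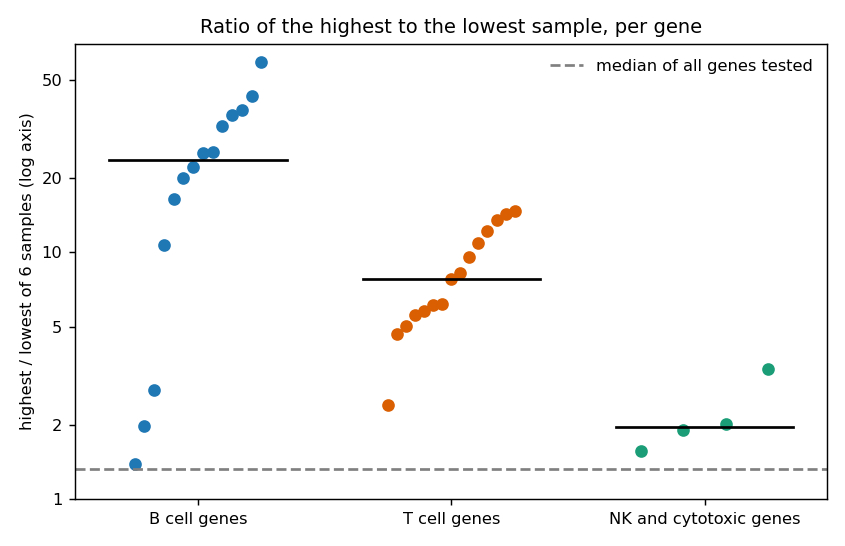
The highest-to-lowest ratio over the 6 samples is plotted on a log axis for each B cell, T cell and NK and cytotoxic gene (points), without Foxp3, which is 0 in 1 sample, with a black line at each list's median over the plotted genes and a dashed line at 1.32, the median over all 13855 genes tested. Most B cell genes lie above the T cell genes, and the 4 NK and cytotoxic genes lie between 1.57 and 3.37.

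The 2 high samples differed in the balance of B and T cell genes. AKO replicate 2 exceeded control replicate 1 by a median factor of 1.26 for B cell members (from 0.756 to 2.13) and 1.83 for T cell members (from 1.19 to 4.33), and was the higher of them in 12 of 14 and 16 of 16 members. As mean log2(normalized count + 1) over a list, B cell members stood at 7.36, 4.67 and 4.25 in control and 4.76, 7.69 and 4.34 in AKO replicates 1 to 3. T cell members stood at 6.19, 4.29 and 4.72 in control and 4.72, 7.06 and 4.51 in AKO. NK and cytotoxic members stood at 5.36, 4.51 and 5.11 in control and 5.28, 5.11 and 4.88 in AKO. The range within each genotype was thus 3.11 and 3.35 for B cell members and 1.90 and 2.55 for T cell members, against a difference between the genotype means of 0.16 and 0.36.

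**Figure D4:**
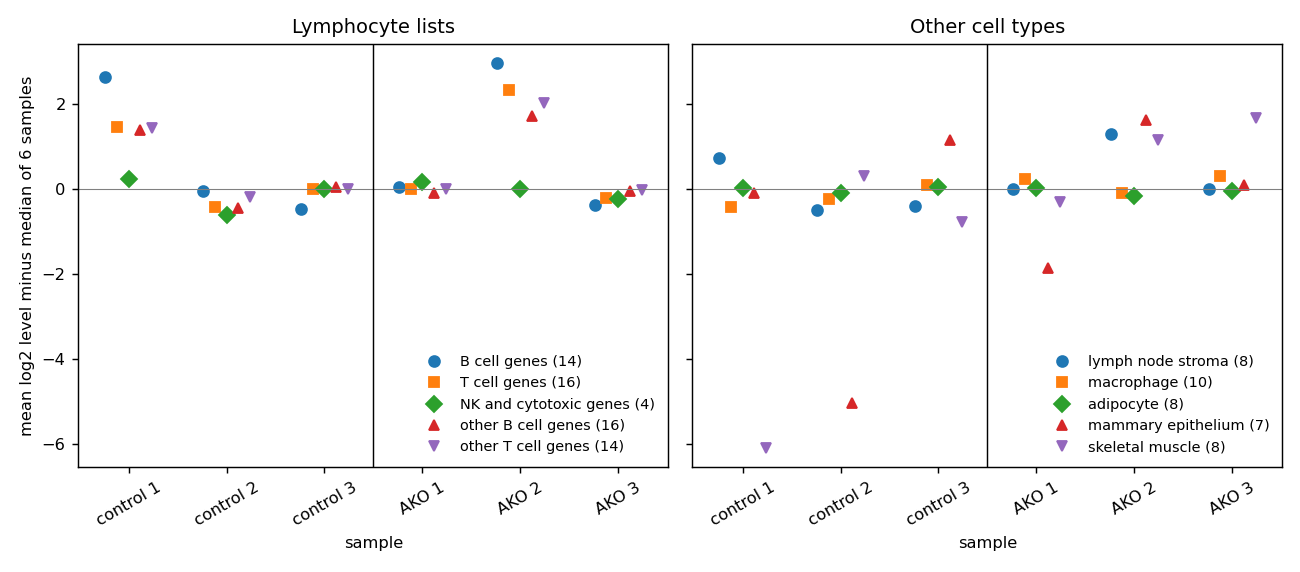
Each point is the mean log2(normalized count + 1) of a list in 1 sample, minus that list's median over the 6 samples, with lymphocyte lists on the left, other cell types on the right and the number of genes in brackets. The B and T cell lists are highest in control replicate 1 and AKO replicate 2, whereas the mean level of the NK and cytotoxic list stays between 4.51 and 5.36 before the median is taken off.

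Lymphocyte genes outside the 36 showed how far the pattern reached. Of 16 other B cell genes tested, 11 had control replicate 1 and AKO replicate 2 as the highest pair, as did 13 of 14 other T cell genes and 5 of 10 other NK and cytotoxic genes. The most abundant other B cell genes, Cd180 and Btk, which myeloid cells also transcribe, were flatter, with 135, 81.7 and 155 in control and 181, 194 and 123 in AKO for Cd180, and 80.7 to 141 over all samples for Btk. Cd247, the zeta chain of the T cell receptor that NK cells share, ran from 100.3 to 185, Il2rb, the interleukin 2 receptor beta chain, from 149 to 258, and the chemokine Ccl5 from 89.3 to 262.

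Genes of lymph node vessels and stroma moved with the B and T cell genes in part. Glycam1, a mucin-like product of the high endothelial venules of lymph nodes, had 87.3, 0 and 1.02 normalized counts in control and 0, 232 and 0 in AKO. Ccl19, a chemokine of the T cell zone, had 40.1, 2.15 and 3.05 in control and 8.64, 52.7 and 9.64 in AKO. Chst4, a sulfotransferase of the same venules, had 3 reads in control replicate 1, 13 in AKO replicate 2 and 0 in the other 4. These genes were chosen for mention after their values were seen. Over the 8 lymph node stroma genes tested, 2 had the same highest pair, and the mean log2 level ran from 5.72 in control replicate 2 to 7.52 in AKO replicate 2. The most abundant ones did not follow it, since Ltbr, the lymphotoxin beta receptor, ran from 1722 in control replicate 1 to 1948, and Lyve1, a receptor of lymphatic vessels and of some macrophages, was lowest in control replicate 1 at 562. The part of node tissue in the B and T cell values was not tested.

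Other cell types were spread in other ways. The mean log2 level of 8 adipocyte genes stayed between 14.71 and 14.93, and that of 10 macrophage genes ran from 9.98 in control replicate 1 to 10.71 in AKO replicate 3. For 8 leukocyte genes shared by most white cells, the level ran from 8.24 in control replicate 2 to 9.49 in AKO replicate 2, with control replicate 1 next at 9.06. Skeletal muscle genes were lowest in control replicate 1, at 4.37, and between 9.70 and 12.15 in the other samples. The 6 samples were checked as separate libraries, since reads of any 2 samples of a group differed by more than sampling noise.

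No genotype difference was detected in the lymphocyte genes. None of the 34 members passed an adjusted p under 0.05 by limma (0 of 34, against 0.0144% of the 13855 genes tested), 0 had an unadjusted p under 0.05 (against 9.1%), and in 0 did the groups fail to overlap (against 14.5%). For 28 members the 2 highest samples were control replicate 1 and AKO replicate 2, 1 of each genotype, so their groups had to overlap. The same pair widens the spread that the tests use, so low shares here say little about genotype. edgeR and DESeq2 on the recovered reads also gave 0 members with an unadjusted p under 0.05, among those they tested. DESeq2 gave no p for Cd22, Cd79a, Ms4a1, Fcer2a and Spib because of outlying counts, and Pax5, Blk and Foxp3 were under the count filter used with edgeR. The adjusted p-values of the members ran from 0.767 to 0.995 by limma, and exact permutation tests (2-sided, 3 against 3, smallest possible p 0.1) gave p from 0.4 to 1. By sign, 10 of 14 B cell, 15 of 16 T cell and 3 of 4 NK and cytotoxic members were higher in AKO, with median log2 fold changes of 0.16, 0.27 and 0.06, against 0.01 over all genes. These signs are not independent of each other, since AKO replicate 2 was the highest sample for 28 of the 34 members.

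The size of change that could be detected differed between genes. The median residual SD on the log2 scale was 2.08 for B cell, 1.28 for T cell and 0.37 for NK and cytotoxic members, against 0.14 for all genes. With control replicate 1 and AKO replicate 2 both left out, a choice made after seeing the data, it was 0.31, 0.34 and 0.32 against 0.12. The medians of the log2 fold changes were then 0.12, 0.12 and 0.21, with 11 of 14, 9 of 16 and 2 of 4 members higher in AKO, and again no member had an unadjusted p under 0.05, the lowest adjusted p being 0.548. The interval of Cd22 was then far narrower, with a log2 fold change of 0.06 (95% confidence interval -0.83 to 0.95), and the values were, for Tcf7, -0.15 (95% confidence interval -0.79 to 0.48), for Cd4, -0.48 (95% confidence interval -1.25 to 0.30) and, for Fcer2a, -0.29 (95% confidence interval -1.63 to 1.05). Changes of more than 1 log2 unit thus lay outside the intervals of Ebf1, Cd37 and Nkg7 with all 6 samples and of Cd22 without this pair, but inside that of Fcer2a in either case. Without this pair the Cd22 interval covers only the samples where Cd22 was low, so it does not speak for all 6.

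**Figure D5:**
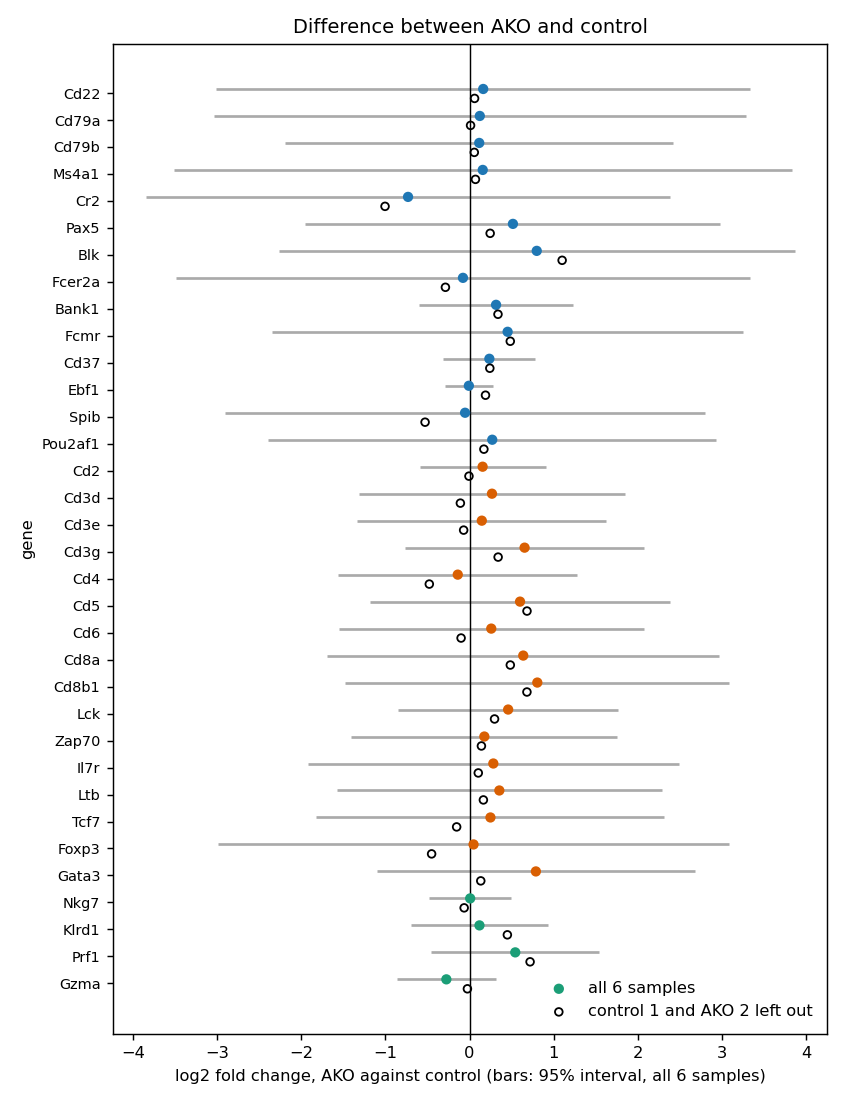
Filled points are log2 fold changes (AKO over control) from limma with all 6 samples, bars are their 95% confidence intervals, and open points are the values with control replicate 1 and AKO replicate 2 left out, for the 34 members in rows. All bars include 0, and they are widest for B cell genes such as Ms4a1 (from -3.51 to 3.83) and narrow for Ebf1 (from -0.29 to 0.27).

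Of the 8 lymph node stroma genes tested, 3 had an unadjusted p under 0.05 by limma, all higher in AKO, against 9.1% of all genes. Other lists held such genes too, with 4 of 10 for macrophages (10 of 10 higher in AKO), 2 of 8 for shared leukocyte genes (8 of 8 higher) and 3 of 6 for adipocyte progenitors (6 of 6 higher). Cxcl13, the chemokine that draws B cells into follicles and that macrophages and stroma make, had 242, 155 and 165 normalized counts in control and 339.9, 391 and 337 in AKO, so that the genotypes did not overlap. By limma it differed by 0.95 on the log2 scale (SE 0.17), with an unadjusted p of 0.000533 and an adjusted p of 0.205. Tnfsf13b, which encodes the B cell survival factor BAFF, had 62.2, 63.4 and 68.1 in control and 83.5, 79.1 and 80.0 in AKO, a difference of 0.32 (SE 0.13) on the log2 scale, and its adjusted p by limma was 0.536. For Lyve1, with 562, 912 and 1032 in control and 1276, 982 and 1616 in AKO, the log2 fold change was 0.65 (standard error 0.25) and the adjusted p 0.516 by limma. None of these 3 passed the threshold by limma, while DESeq2 on the recovered reads called Cxcl13 (adjusted p = 0.000334) and not the other two. In each genotype the highest Cxcl13 value was in the sample that was also highest for the B cell members. Lyve1 and Tnfsf13b were lowest in control replicate 1, where B cell members were high. With control replicate 1 and AKO replicate 2 left out, the log2 fold changes were 1.08 for Cxcl13, 0.31 for Tnfsf13b and 0.57 for Lyve1.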

How the data were processed

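RNA-Seq reads of 6 iWAT samples were aligned by the authors with STAR to GRCm38.p6 and counted per gene with featureCounts on a GENCODE annotation. Whether counting used strand, and the kit's strandedness, are not given in the sources used here. Genes whose exons are shared with other genes are therefore uncertain, namely Foxp3 (31.5% of exonic bases), Cd22 (9.5%), Pax5 (8.6%), Gata3 (5.83%) and Cd3e (3.31%), with under 1% for Cd37 and Lck. The deposited signal per gene and sample is a normalized count, in which each sample's reads were scaled by its DESeq2 size factor, with no correction for gene length. The authors' log2 fold changes, p-values and adjusted p-values were not used. Positions and exon lengths are from GENCODE M21 (GRCm38).

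Members and lists were chosen with earlier results of these data known. Because values are not raw counts, limma (3.58.1, R 4.3.3) was used on log2(value + 1), for 13855 genes with a mean of at least 10, with a variance trend and Benjamini-Hochberg adjustment at 0.05 over all genes tested. Dividing by the value of a single read (0.960 to 1.08) gave whole reads for 100% of values within 0.01, tested with edgeR (4.0.16) and DESeq2 (1.42.0). Depth was 17570335 to 18373707 reads. Replicates are separate pools of mice, so p-values measure the spread between these pools. Scripts were tested on simulated data. Named were all members, with every sample's value for the 6 of highest mean among B and among T cell genes, all 4 NK and cytotoxic genes and those of widest and narrowest ratio, and from other lists the 2 of highest mean and any with p under 0.05, some of which are not reported here. Others, such as Cd79a, Cd79b, Cr2, Blk, Bank1, Cd3e, Cd8b1, Krt18, Glycam1, Ccl19 and Chst4, were given in full after their values were seen. The alternatives were other filters, pseudocounts, scalings and tools, a replicate block and leaving out samples.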

Additional observations from a re-analysis of the deposited data

How the results depend on the processing

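No member was called under any alternative that tested it, with a lowest adjusted p of 0.510. The filter of 10 normalized counts in every sample left 13 members untested, edgeR left Pax5, Blk and Foxp3 untested, and DESeq2 gave no p for 5 members. Over all genes, 2 were called, against 6 with at least 10 normalized counts required in every sample, 5 by edgeR with RLE factors and 149 by DESeq2. The range was 0 to 3 on leaving out a single sample, and 0 were called with control replicate 1 and AKO replicate 2 both left out. With the replicate number as a block, 2 genes were called and the medians of the members' log2 fold changes were 0.16 for B cell, 0.27 for T cell and 0.06 for NK and cytotoxic genes. Deviations of same-numbered samples from their group means correlated at r = 0.136, -0.352 and 0.24 for numbers 1, 2 and 3. The labels give no pairing by number, and these correlations cannot settle whether there was one. The cause of the changes of sign that follow was not tested, beyond the number of samples in fits that leave some out.

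Leaving out a single sample moved the median log2 fold change of B cell members between -0.89 (without AKO replicate 2) and 1.29 (without control replicate 1), that of T cell members between -0.48 and 0.88, and that of NK and cytotoxic members between -0.12 and 0.24. The sign of the B cell median turned without AKO replicate 2, without control replicate 2 (-0.16) and without control replicate 3 (-0.44), that of the T cell median without AKO replicate 2 and without control replicate 2 (-0.023), and that of the NK and cytotoxic median without control replicate 2. Without control replicate 1 all of these medians kept their sign and moved up. Leaving out a single sample, which differed between genes, changed the sign of 30 members. Their ranges over all such fits were Cd22 -1.24 to 1.46, Cd79a -1.26 to 1.40, Cd79b -0.88 to 1.05, Ms4a1 -1.37 to 1.60, Cr2 -2.16 to 0.43, Pax5 -0.57 to 1.34, Blk -0.32 to 2.22, Fcer2a -1.60 to 1.24, Bank1 -0.0459 to 0.70, Fcmr -0.71 to 1.65, Ebf1 -0.12 to 0.12, Spib -1.44 to 0.97, Pou2af1 -0.90 to 1.34, Cd2 -0.21 to 0.35, Cd3d -0.51 to 0.69, Cd3e -0.56 to 0.64, Cd3g -0.0662 to 1.06, Cd4 -0.85 to 0.44, Cd5 -0.067 to 1.35, Cd6 -0.63 to 0.79, Cd8a -0.41 to 1.53, Cd8b1 -0.21 to 1.69, Lck -0.16 to 0.92, Zap70 -0.44 to 0.76, Il7r -0.70 to 1.09, Ltb -0.55 to 1.07, Tcf7 -0.80 to 0.90, Foxp3 -1.21 to 1.36, Nkg7 -0.18 to 0.14, Klrd1 -0.06 to 0.42.

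Other settings changed the sign of small values. A pseudocount of 10 gave 0.014 for Fcer2a and 0.087 for Spib, and one of 0.1 gave -0.76 for Foxp3. edgeR with TMM factors gave 0.285 for Fcer2a, 0.014 for Ebf1, 0.69 for Spib and 0.16 for Cd4. With RLE factors it gave 0.285, 0.00295, 0.69 and 0.16 for the same genes and -0.0052 for Nkg7. DESeq2 gave 0.29, 0.0015, 0.70 and 0.16, and -0.0074 for Nkg7. TMM factors in limma gave 0.000799 for Ebf1. With control replicate 1 and AKO replicate 2 both left out, the values were 0.19 for Ebf1, -0.0067 for Cd2, -0.11 for Cd3d, -0.0699 for Cd3e, -0.10 for Cd6, -0.15 for Tcf7, -0.45 for Foxp3 and -0.064 for Nkg7. Scaling to the total reads of each sample in place of size factors gave highest-to-lowest ratios of summed levels of 1.87, 6.61 and 1.72 for B cell, T cell and NK and cytotoxic members. The B cell ratio was 6.77 without Ebf1. Depth limits the low values, since 20 of 56 B cell values outside control replicate 1 and AKO replicate 2 rest on at most 10 reads.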

Other observations

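Among all genes tested, 52 had control replicate 1 and AKO replicate 2 both at least 3-fold above the other 4 samples. Of these, 16 were members of the 36 named genes, 28 (members included) were in lists written for cell types and 24 were in no list. The genes named here from those 24 were chosen after their values were seen. Btla, an inhibitory receptor of B and T cells, had 159.6, 24.7 and 18.3 normalized counts in control and 31.7, 227 and 28.9 in AKO. Il21r, the receptor for interleukin 21, had 109, 18.3 and 19.3 in control and 17.3, 137 and 14.5 in AKO. Marco, a scavenger receptor of certain macrophages, lymph node ones included, had 83.3, 5.38 and 3.05 in control and 10.6, 130.8 and 3.86 in AKO. All of these were high in the same pair, and so was H2-Oa, a chain of the MHC class II regulator of B cells, with 22.1 in control replicate 1, 43.9 in AKO replicate 2 and at most 5.78 elsewhere. Dsc3, an epithelial desmosome gene, had 22.1 and 45.9 in this pair and was listed at 0 in the other 4 samples.

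Dendritic cell and plasma cell lists were flatter than the B and T cell lists. The mean log2(normalized count + 1) of 9 dendritic cell genes ran from 7.46 in control replicate 2 to 8.25 in AKO replicate 2. That of 5 plasma cell genes ran from 6.62 in control replicate 2 to 7.56 in AKO replicate 2. The highest pair was control replicate 1 and AKO replicate 2 for 2 of the 9 and 2 of the 5 genes. For 4 germinal centre and cycling genes the levels were 7.97, 8.10 and 7.89 in control and 8.45, 8.44 and 8.28 in AKO, with this pair highest for 0 of 4. In these lists Bcl6, a factor of germinal centre B cells and other cells, had a log2 fold change of 0.79 (adjusted p = 0.506 by limma), and Top2a, a gene of dividing cells, one of 0.51 (adjusted p = 0.350 by limma). Prdm1, a factor of plasma cells and other cells, had 1.02 (adjusted p = 0.485 by limma) and Xbp1, which secretory cells of many kinds use, had -0.18 (adjusted p = 0.539 by limma). These 4 had an unadjusted p under 0.05 by limma and none passed after adjustment. They are 2 of 5 plasma cell and 2 of 4 germinal centre and cycling genes, against 9.1% of all genes.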
